A study of Homo sapiens with 35 samples.

Results

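The p52 binding sites of TWEAK-treated and untreated U-87 MG cells (a human glioblastoma line) were compared from the 4 ChIP-seq peak lists of control cells, using every deposited peak. These lists hold 16506 peaks, of 273996 in all 20 peak lists of the series. The control cells carried the lentiviral CRISPR control vector, for which no guide is listed, were starved for 8 h in Optimem and were then left untreated or given 10 ng/ml of TWEAK for 48 h, each with 2 p52 libraries from an antibody against NFKB2. RNA-seq libraries of the same 2 conditions, and of *NFKB2* KD cells that also received TWEAK, had 3 replicates each. TWEAK-treated *ETS1* KD cells were used as well. They supplied 4 further p52 lists, from 2 guides, and 3 RNA-seq libraries that entered the same RNA model. The antibody recognises the product of *NFKB2*, so a peak cannot tell p52 from its precursor p100. The study's methods call the RNA-seq replicates biological, without saying what set them apart. Nothing in the labels says that replicates came from separate cultures, so the p-values measure the spread between these samples. In the RNA-seq libraries, *VIM* lay between 9270 and 16400 CPM (counts scaled to a common library size) and *CD44* between 1120 and 2330 CPM, both usual in mesenchymal cells. The astrocyte markers *GFAP* and *AQP4* lay between 0.0702 and 0.282 CPM and at 0 CPM, so the defining astrocyte markers were absent or nearly so.

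TWEAK is a cytokine of the TNF family that signals through the receptor Fn14. In the non-canonical NF-κB pathway, the kinase NIK leads to the processing of the *NFKB2* precursor p100 into p52, which enters the nucleus, mostly as a dimer with RELB, and binds short κB sequences in promoters and enhancers. Many NF-κB genes, among them *NFKB2* and *RELB* and those for the inhibitors of the pathway, are themselves textbook NF-κB targets.

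The following reference sequences (hg38, plus strand, 81 bases centred on the p52 summit in TWEAK-treated cells) show what lay under the strongest of the gained sites, which had a peak in both TWEAK-treated libraries and in neither untreated library. Capitals mark matches to the κB consensus of 10 bases, on either strand, and overlapping matches run together. Each is named by the nearest protein-coding gene.
EGR1, chr5:138461453-138461533: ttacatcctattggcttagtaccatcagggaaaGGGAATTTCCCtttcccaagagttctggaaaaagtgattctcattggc
PLA2G6, chr22:38180207-38180287: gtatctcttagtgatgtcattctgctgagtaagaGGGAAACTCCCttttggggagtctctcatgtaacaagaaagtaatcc
STX8, chr17:9389224-9389304: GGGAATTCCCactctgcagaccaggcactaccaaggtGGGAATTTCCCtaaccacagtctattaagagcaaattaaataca
CEMIP, chr15:80776543-80776623: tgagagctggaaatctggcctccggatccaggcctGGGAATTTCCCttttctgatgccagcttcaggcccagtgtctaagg
F2RL1, chr5:76831287-76831367: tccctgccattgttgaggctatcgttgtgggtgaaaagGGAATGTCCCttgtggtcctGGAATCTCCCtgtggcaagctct

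The next set comes from the gained sites at genes of the NF-κB pathway itself, and shows κB matches near start sites. Not every such site held one: in the same 81 bases, the nearest gained sites of *TNIP1*, *TRAF1* and *IKBKG*, not printed, had 0 matches. In the 200 bp around the summit, that of *TNIP1* had 1. The other gained sites of *TNIP1* and *TRAF1* within 10 kb also held matches there.
NFKB2, chr10:102394460-102394540: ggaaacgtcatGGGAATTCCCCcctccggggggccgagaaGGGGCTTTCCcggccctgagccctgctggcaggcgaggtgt
REL, chr2:60881490-60881570: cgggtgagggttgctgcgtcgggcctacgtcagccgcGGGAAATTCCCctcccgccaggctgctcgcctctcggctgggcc
RELB, chr19:45001299-45001379: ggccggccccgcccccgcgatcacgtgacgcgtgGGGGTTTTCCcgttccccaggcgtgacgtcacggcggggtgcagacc
NFKBIA, chr14:35403899-35403979: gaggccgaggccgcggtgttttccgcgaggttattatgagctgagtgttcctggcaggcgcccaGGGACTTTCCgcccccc
NFKBIB, chr19:38899906-38899986: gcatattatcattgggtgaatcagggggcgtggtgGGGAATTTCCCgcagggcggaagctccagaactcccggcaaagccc
TRAF2, chr9:136902559-136902639: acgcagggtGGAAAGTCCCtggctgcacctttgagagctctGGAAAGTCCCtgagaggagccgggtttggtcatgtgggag

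The last set comes from gained sites near cytokine, protease and antigen presentation genes and from a gene whose RNA was lower with TWEAK (*DPP4*). *NPAS4* is added for contrast. Its site had a peak in every library and held no κB match.
CXCL2, chr4:74099227-74099307: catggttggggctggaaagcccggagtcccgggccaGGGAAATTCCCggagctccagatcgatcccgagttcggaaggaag
CXCL3, chr4:74038722-74038802: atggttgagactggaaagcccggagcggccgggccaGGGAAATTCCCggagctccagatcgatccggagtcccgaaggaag
LIF, chr22:30250917-30250997: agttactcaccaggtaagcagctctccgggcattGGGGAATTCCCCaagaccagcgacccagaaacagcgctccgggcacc
IL32, chr16:3065268-3065348: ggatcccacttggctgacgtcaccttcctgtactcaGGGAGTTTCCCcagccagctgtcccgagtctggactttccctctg
MMP9, chr20:46008253-46008333: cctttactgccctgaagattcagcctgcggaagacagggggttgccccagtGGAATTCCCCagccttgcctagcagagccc
B2M, chr15:44711355-44711435: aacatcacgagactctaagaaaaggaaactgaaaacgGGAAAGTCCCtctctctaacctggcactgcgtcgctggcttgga
DPP4, chr2:162074617-162074697: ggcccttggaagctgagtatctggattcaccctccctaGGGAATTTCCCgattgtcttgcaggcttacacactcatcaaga
NPAS4, chr11:66421768-66421848: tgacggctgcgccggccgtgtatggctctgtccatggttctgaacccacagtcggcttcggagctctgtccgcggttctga

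Several of the strongest sites held a nearly symmetric κB sequence at their centre, such as GGGAATTTCCC at *EGR1* and at *CEMIP*, while the matches at *F2RL1* were less symmetric. The windows of *CXCL2* and *CXCL3*, neighbouring chemokine genes that arose by duplication, shared the same κB match, GGGAAATTCCC, and reads of such copies may be divided between them by the mapping.

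TWEAK-treated cells had many more p52 peaks, and the peaks were stronger. The untreated libraries had 714 and 452 peaks, and the TWEAK-treated libraries had 3579 and 11761. The lowest TWEAK-treated library was thus above both untreated ones, and the groups did not overlap. The means were 583 and 7670 peaks, a difference of 7087, and the exact permutation test gave a two-sided p of 0.333, the smallest that 2 against 2 libraries allow. The median fold enrichment over background at the summit, as given by the peak caller of the authors, was 2.96 and 2.94 in untreated cells and 7.23 and 7.004 in TWEAK-treated cells. Peaks of at least 10-fold enrichment numbered 3 and 5 (0.420% and 1.11%) without TWEAK and 1050 and 3492 (29.3% and 29.7%) with it. The TWEAK-treated libraries differed from each other in the number of peaks, and yet had nearly the same median strength and the same share of strong peaks. The lists hold no read counts. The depth behind each peak is unknown, and single sites could not be tested. The only input library of control cells in the series is recorded as TWEAK-treated. Its part in the enrichment values of untreated cells was not tested.

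**Figure D1:**
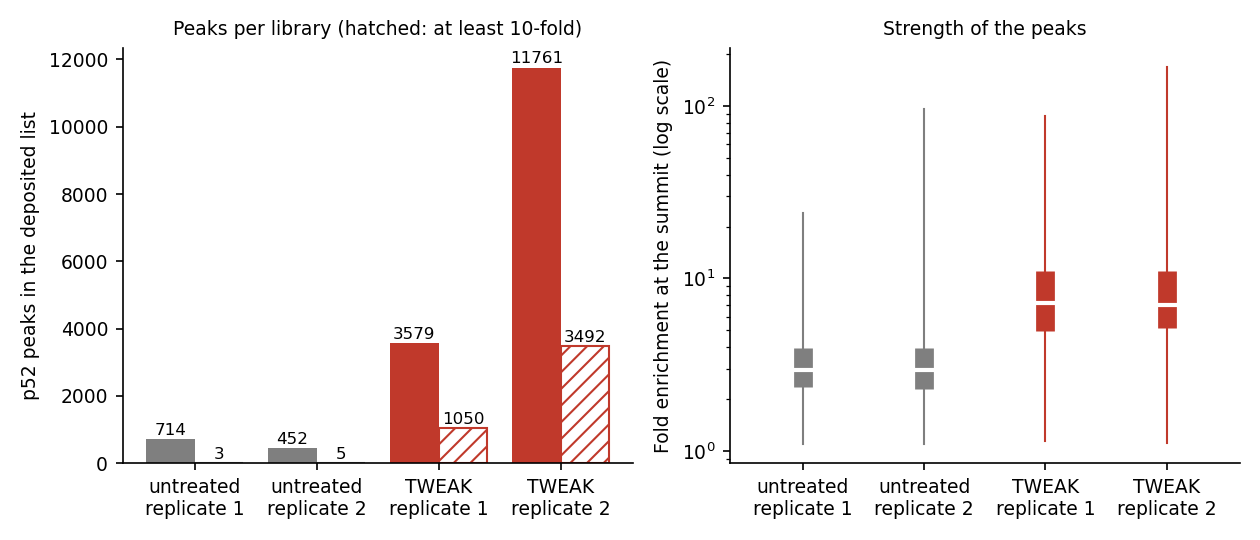
On the left, bars give the number of p52 peaks in each of the 4 libraries and hatched bars those of at least 10-fold enrichment (y axis, peaks). On the right, the fold enrichment at the summit is on a log y axis, with thin lines for the range, thick bars for the quartiles and white marks for the median: the untreated libraries have 714 and 452 peaks with medians of 2.96 and 2.94, and the TWEAK-treated libraries 3579 and 11761 peaks with medians of 7.23 and 7.004.

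The overlap between lists was uneven, since the lists differ in length. Of the peaks of TWEAK replicate 1, 82.4% were also called in TWEAK replicate 2, and 25.5% of the list of replicate 2 was also called in replicate 1. Of the peaks of TWEAK replicate 1, 8.97% and 6.45% overlapped a peak of untreated replicates 1 and 2, and for TWEAK replicate 2 these shares were 1.56% and 1.18%. Of the untreated peaks, 55.6% and 59.96% overlapped a peak of TWEAK replicate 1 and 26.8% and 31.4% a peak of TWEAK replicate 2. The untreated lists shared more of their peaks with the shorter TWEAK-treated list.

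Overlapping peaks were merged, which gave 2941 sites with a peak in both TWEAK-treated libraries. Of these, 2807 had no peak in either untreated library and are called gained, 103 had a peak in all 4 libraries, and 31 had one in both TWEAK-treated libraries and in 1 untreated library. In all, 72 sites had a peak in both untreated libraries and in neither TWEAK-treated library, and are called lost. A further 8722 sites had a peak in TWEAK replicate 2 alone and 420 in TWEAK replicate 1 alone. The choice of library decided the number of gained sites: without TWEAK replicate 1 there were 11559 and without TWEAK replicate 2 there were 3235. With the 452 strongest peaks of every list, 338 sites were gained, 10 were in all 4 libraries and 199 were lost.

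At gained sites the replicates had close summits and a similar order of strength. Closeness follows in part from the rule, since a gained site needs overlapping peaks in both TWEAK replicates. Sites with a peak in a single replicate do not enter these values. Median fold enrichment was 8.27 in TWEAK replicate 1 (quartiles 6.29 and 12.2) and 17.6 in replicate 2 (quartiles 11.96 and 26.8). The value was higher in replicate 2 at 2739 sites (97.6%), with a median ratio of 2.03, so that replicate 2 was shifted upwards at nearly all sites. Across the gained sites, which share both libraries and are not independent replicates, Spearman's rho between the replicates was 0.87. The summits of the replicates lay a median of 8 bp apart and within 20 bp of each other at 2078 sites (74.0%). At least 10-fold enrichment in both replicates was reached by 1026 sites and at least 20-fold by 221.

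**Figure D2:**
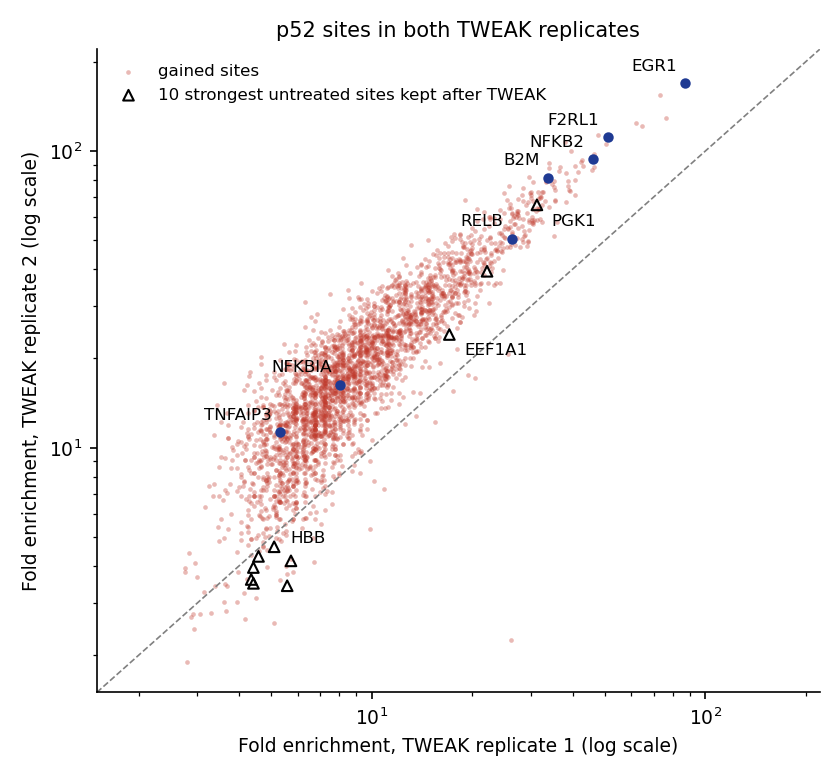
Each red point is 1 of the 2807 gained sites, by its fold enrichment in TWEAK replicate 1 (x axis) and replicate 2 (y axis), both on log scales, with the dashed line at equal values. At 97.6% of gained sites the value is higher in replicate 2, blue points mark sites at named genes, and triangles mark the 10 sites present in all 4 libraries with the highest untreated values.

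Gained sites were mostly away from promoters. Of the 2807, 602 (21.45%, exact 95% confidence interval 19.9% to 23.01%) lay at a promoter, here the stretch that begins 1000 bp before a start site and ends 100 bp after it, 1255 (44.7%) in an intron, 144 (5.13%) in an exon and 806 (28.7%) between genes. The intervals cover counting error only. The nearest start site of a protein-coding gene was within 1 kb at 22.7% of gained sites, between 1 and 10 kb at 22.02%, between 10 and 100 kb at 38.4% and beyond 100 kb at 16.9%. Close to start sites of protein-coding genes, the centres of gained sites were most frequent just upstream. There were 207 in the 250 bp before such a start site and 160 in the 250 bp after it. The stretch from 1000 to 500 bp upstream had 62. Strength did not follow place: median fold enrichment in TWEAK replicate 1 was 8.21 at promoters, 8.51 in introns and 8.23 between genes, and 18.2, 17.6 and 17.5 in replicate 2.

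The sites with a peak in all 4 libraries were of another kind. Of the 103, 84 (81.6%) lay between genes, 19 (18.4%) lay on contigs other than the assembled chromosomes, and the nearest coding start site was beyond 100 kb at 78.6% of those on chromosomes. The 31 bases at the summit occurred at a single place in hg38 for 13.6% of them and in more than 10 copies for 53.4%, while 88.0% of gained sites had a unique summit sequence. Almost all, 98 of 103 (95.15%), overlapped a site called in both ETS1 libraries of untreated cells, and 98 overlapped one of TWEAK-treated cells, against 1.496% and 1.89% of gained sites. Their median fold enrichment was 2.75 and 2.59 in untreated and 3.03 and 2.37 in TWEAK-treated cells, so as a group they were about as weak with TWEAK as without. The lost sites resembled them, with 91.7% between genes, 65.3% in more than 10 copies and median values of 3.01 and 3.35 in untreated cells. The 5 strongest lost sites, on chromosomes 3, 7, 12 and 16, had 4.83-fold to 6.75-fold enrichment and held no κB match. Shared sequence copies, the ETS1 antibody peaks and the class of a site moved together, and their part in these peaks was not tested.

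**Figure D3:**
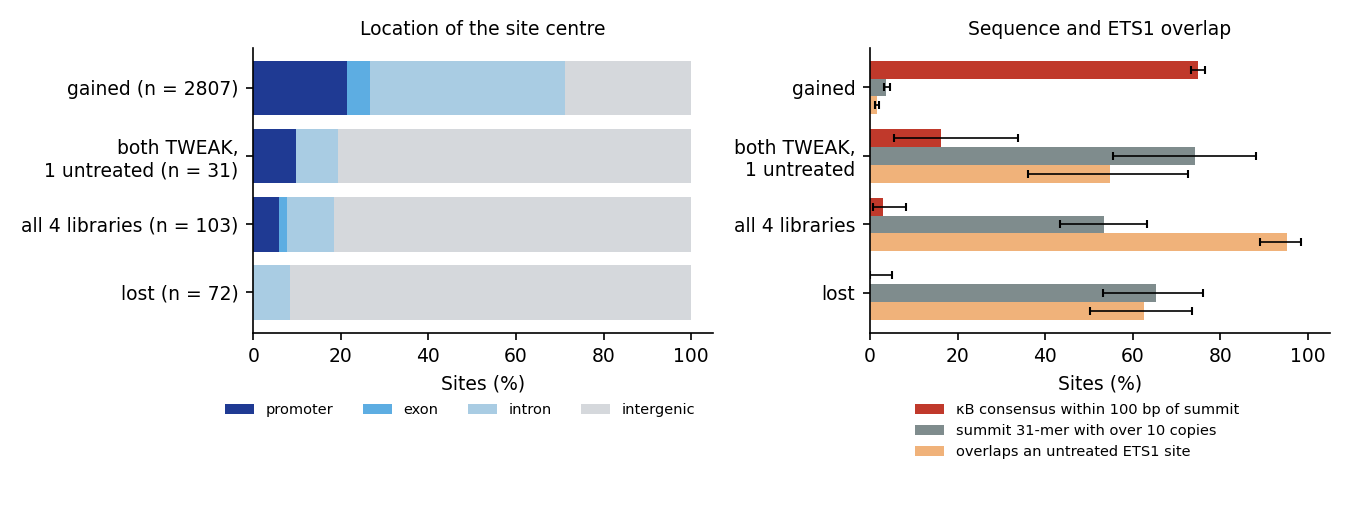
On the left, stacked bars give the share of sites (x axis, percent) by place for gained sites, sites in both TWEAK libraries and 1 untreated library, sites in all 4 libraries and lost sites. On the right, bars with exact 95% confidence intervals give the share with a κB match, with a summit sequence in more than 10 copies and with an ETS1 site of untreated cells: a κB match is in 74.99% of gained sites and 2.91% of sites in all 4 libraries, and 95.15% of the latter overlap an ETS1 site.

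A few sites with unique sequence stood out among the 103. At *PGK1*, which encodes a glycolytic enzyme, a promoter site (chrX:78103800-78104343, 176 bp upstream of the start site) had 24.0-fold and 8.38-fold enrichment in untreated and 31.3-fold and 65.8-fold in TWEAK-treated cells. At *NPAS4*, an activity-dependent transcription factor, a site in intron 1 (chr11:66421509-66422027) had 10.4-fold and 9.55-fold in untreated and 22.2-fold and 39.3-fold in TWEAK-treated cells. At both, the highest value was in TWEAK replicate 2 and the groups did not overlap. At *EEF1A1*, which encodes a translation elongation factor, the promoter site (chr6:73520055-73521225) had 6.82-fold and 14.96-fold against 17.1-fold and 24.1-fold, again without overlap, although enrichment is not on a common depth across libraries. The highest value of any untreated peak, 95.8-fold, was at the beta-globin gene *HBB* (chr11:5225772-5226085) in untreated replicate 2, where the other 3 libraries had 9.70-fold in untreated replicate 1 and 5.10-fold and 4.64-fold in TWEAK-treated cells. The cells carried lentiviral constructs, whose sequences were not used here, and whether the reads at *PGK1*, *EEF1A1* and *HBB* came from the genome, a vector or the assay was not tested, so these values are not taken as p52 binding at the genes. None of these sites held a κB match, and of the 10 strongest sites by untreated strength, 9 overlapped an ETS1 site (the exception was *NPAS4*). Among sites with a peak in 1 untreated library, the strongest lay 3759 bp upstream of *PLA2G6* (chr22:38217979-38219094), with 5.66-fold in untreated replicate 1 and 74.1-fold and 136.9-fold in TWEAK-treated cells.

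Most gained sites held a κB sequence, and the rule that chose these sites did not use sequence. In the 200 bp around the summit, 2105 gained sites (74.99%, interval 73.4% to 76.6%) held a κB match, against 1.54% of all 200 bp windows of the genome and 3.87% of promoter windows. At 45.3% of gained sites there were at least 2 matches. Here and below, overlapping matches count separately, so a single stretch such as GGGAATTTCCC counts as 2. Separate stretches were not counted. Of the sites in TWEAK replicate 2 alone, 61.2% held a match, and of those in TWEAK replicate 1 alone 9.05% (38 of 420) did. Of the sites in all 4 libraries, 3 of 103 did (2.91%, interval 0.605% to 8.28%), and of the lost sites 0 of 72 (upper limit of the interval 4.99%). The nearest match was centred a median of 4 bp from the summit and within 20 bp of it at 1834 gained sites, 87.1% of those with a match. The matches took 55 forms of the decamer. The most frequent were GGGGAATTCC at 310 sites, GGGAAATCCC at 309, GGGAATTCCC at 303 and GGGGATTTCC at 257, each counted on both strands.

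Other motifs were less unequal between gained sites and the genome. The AP-1 motif TGANTCA, searched on both strands, was in 24.9% of gained sites, 6.16% of genome windows and 5.33% of promoter windows. The ETS core AGGAAG was in 24.55% of gained sites, 18.3% of genome windows and 24.52% of promoter windows, and the longer ETS sequence CCGGAAGT in 0.392%, 0.0927% and 3.71%. The TEAD sequence GGAATG was in 13.4%, 10.9% and 9.38%, the RUNX sequence TGTGGT in 11.9%, 13.4% and 8.81%, and the CTCF consensus in 0.962%, 0.0704% and 0.365%. GGAATG can overlap a κB match, and a match says only that the letters are there. AP-1 matches were in 28.45% of gained sites in introns and 29.7% of those between genes but 11.6% of those at promoters, while κB matches were in 75.3%, 77.7% and 72.1%.

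**Figure D4:**
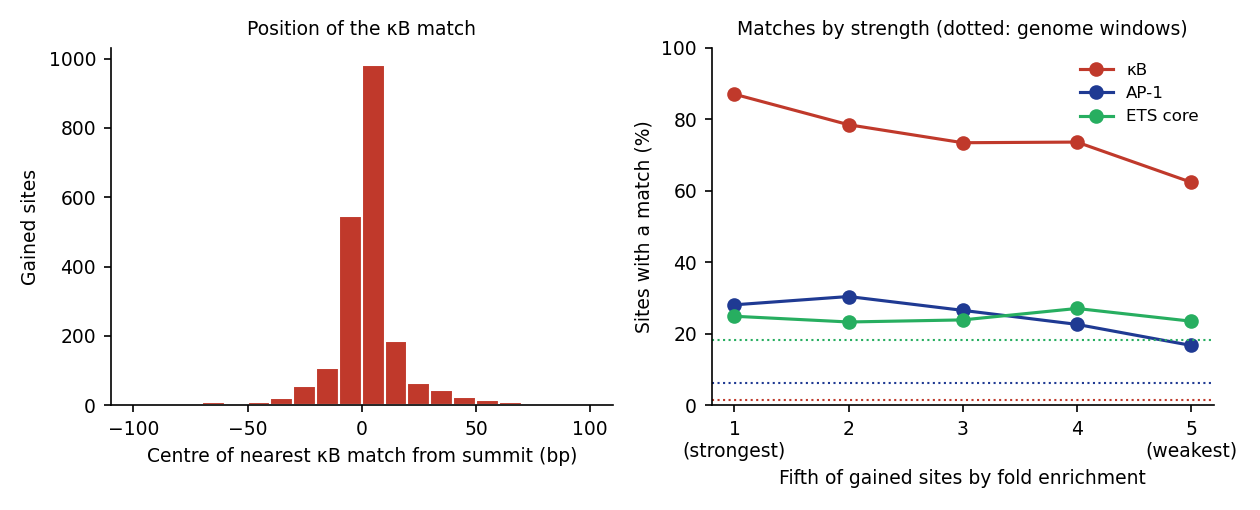
On the left, bars count gained sites (y axis) by the distance of the centre of the nearest κB match from the summit (x axis, bp), and 87.1% of matched sites lie within 20 bp. On the right, lines give the share of gained sites with a κB, AP-1 or ETS core match (y axis, percent) in 5 groups of strength (x axis), with dotted lines at the share of all genome windows: κB matches are in 87.01% of the strongest and 62.4% of the weakest group.

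When gained sites were placed in 5 groups by the lower of the TWEAK values, κB matches were in 87.01% of the strongest group (13.8-fold to 86.9-fold), in 78.5%, 73.4% and 73.6% of the next 3, and in 62.4% of the weakest (1.90-fold to 5.91-fold). AP-1 matches were in 28.1%, 30.4%, 26.6%, 22.6% and 16.8%. The ETS core showed no such order, with 24.9%, 23.3%, 23.9%, 27.1% and 23.5%. The share at promoters was 21.9% in the strongest group and 24.4% in the weakest.

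RNA Pol II sites covered 0.617% of the genome in TWEAK-treated control cells and overlapped 608 gained p52 sites (21.7%), and those of untreated cells overlapped 466 (16.6%). At promoters, 56.3% of gained sites overlapped an RNA Pol II site of TWEAK-treated cells and 44.5% one of untreated cells, while in introns the shares were 12.35% and 8.37% and between genes 9.55% and 7.07%. Many gained sites at promoters thus lay where RNA Pol II was already called without TWEAK. In the p52 lists of TWEAK-treated *ETS1* KD cells, which hold 1387 to 4252 peaks, 1094 gained sites (39.0%) had a peak in all 4 libraries and 282 (10.05%) in none. Replicate 1 of guide 1, the shortest list, had a peak at 39.6% of gained sites and the other 3 lists at 80.1% to 80.5%. In the strongest of the 5 groups 91.1% of sites had a peak in all 4 and in the weakest 7.67%. These shares hold for gained sites only. Of the 8722 sites in TWEAK replicate 2 alone, 0.493% had a peak in all 4 of these lists and 73.66% in none.

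The single strongest gained site lay 3969 bp upstream of *EGR1* (chr5:138461215-138461804), which encodes an immediate early transcription factor, with 86.9-fold and 168.9-fold enrichment in the TWEAK replicates. The next were in intron 1 of *PLA2G6* (chr22:38179848-38180520, 76.2-fold and 129.5-fold), which encodes a phospholipase, and in intron 6 of *STX8* (chr17:9388926-9389576, 72.9-fold and 154.2-fold), which encodes a syntaxin. A site 2784 bp upstream of *CEMIP* (chr15:80776274-80776844), whose product takes part in hyaluronan breakdown, had 64.7-fold and 120.9-fold. *NFKB2* itself ranked among the 15 strongest. Its promoter site (chr10:102394033-102394831, 71 bp upstream of a start site, 3 κB matches with overlapping ones included) had 46.0-fold and 93.9-fold. All 15 held at least 1 κB match and had a peak in all 4 p52 lists of *ETS1* KD cells. Most of the nearest genes tested had no RNA change at an adjusted p under 0.05, and the rest went different ways. By edgeR's quasi-likelihood test with Benjamini-Hochberg adjustment, *NFKB2* and *RANGAP1* (log2 fold change 0.57 ± 0.10 SE, adjusted p = 0.00924) rose, *F2RL1*, which encodes a protease-activated receptor, fell (log2 fold change -1.41 ± 0.18, adjusted p = 0.00109), and *EGR1* had 0.45 ± 0.35 (adjusted p = 0.65). The *F2RL1* site lay 12271 bp from its start site, beyond the 10 kb used below.

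The gained sites were nearest to 2281 protein-coding genes, of which 1905 were nearest to exactly 1 site. A gained site lay within 10 kb of a start site of 1508 coding genes and within 1 kb of 705. Genes nearest to most sites were often far from them. *TPTE*, with 19, lay 1390738 to 5444292 bp away on chromosome 21, *CCDC200*, with 8, lay 3399 to 36487 bp away, and *SRGAP2C*, with 7 sites and no κB match, 1756964 to 3556129 bp away. *MYC*, the growth-promoting transcription factor, was nearest to 5 sites at 114011 to 638686 bp, of which the strongest reached 25.5-fold and 68.5-fold, and its RNA rose (log2 fold change 0.71 ± 0.16, adjusted p = 0.0287 by edgeR). *NRG1*, which encodes neuregulin, a ligand of ERBB receptors, was nearest to 5 sites at 320 to 140605 bp, and its RNA rose (log2 fold change 1.49 ± 0.25, adjusted p = 0.00669). *BCL3*, which encodes a nuclear IκB protein that binds p52, had 4 sites within 10 kb.

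To see which of these genes differed in RNA, the sites were set beside the RNA-seq counts of the same conditions (28384201 to 40192606 counts per library). Fewer cells of a type and less RNA per cell cannot be told apart in bulk samples. In all, 261 of 16879 genes tested (1.55%) rose with TWEAK and 259 (1.53%) fell, and 1581 (9.37%) had a gained site within 10 kb of a start site. Of these 1581 genes, 72 (4.55%) rose and 19 (1.20%) fell. For genes with a site within 1 kb, 43 of 787 (5.46%) rose and 12 (1.52%) fell, at 1 to 10 kb 29 of 794 (3.65%) rose and 7 fell, at 10 to 100 kb 60 of 4096 (1.46%) rose and 58 fell, and beyond 100 kb 129 of 11202 (1.15%) rose and 182 (1.62%) fell. The share of raised genes thus lay above the background near gained sites and the share of lowered genes did not. Of all raised genes, 27.6% had a gained site within 10 kb and 49.4% had none within 100 kb. Genes near sites had a higher level (median 4.80 log2 CPM within 10 kb, 3.97 over all genes tested), whose part in the shares was not tested. The counts of calls rested on single RNA-seq libraries. Without untreated replicates 1 or 2 or TWEAK replicate 3, 110 genes rose each time, and without TWEAK replicate 2, 140 did. The lowered genes numbered 77 and 73 without untreated replicates 1 and 2, 169 without untreated replicate 3, and 146, 72 and 61 without TWEAK replicates 1, 2 and 3. The raised genes within 10 kb numbered 31 and 30 without untreated replicates 1 and 2 (1.93% and 1.87%, against 0.636% of all genes tested). They numbered 42 (2.63%, against 0.81%) without TWEAK replicate 2 and 32 (2.0%, against 0.637%) without TWEAK replicate 3. Without p52 library TWEAK replicate 1, when any peak of replicate 2 counted, 144 of 5027 genes within 10 kb rose. This share, 2.86%, was lower than the 4.55% near gained sites and above the 1.55% of all genes tested.

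The share of raised genes also differed with the site. It was 6.74% (23 of 341 genes) where a site of the strongest of the 5 groups lay within 10 kb, 5.07% (61 of 1202) where a gained site held a κB match, and 2.90% (11 of 379) where none did. Genes with a site in TWEAK replicate 2 alone, and no gained site, rose in 2.09% of cases (72 of 3446). These shares are descriptions of sets of genes, some of which overlap, and were not tested.

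The lists of genes that follow are read against all genes tested, of which 9.37% had a gained site within 10 kb, 1.55% rose and 1.53% fell. Genes for NF-κB subunits and inhibitors held the highest share of sites. Of 15 such genes, 10 (66.7%) had a gained site within 10 kb, 8 rose and 0 fell, and the median log2 fold change was 0.56, against 0.02 over all genes. *NFKB2* had 49.5, 54.5 and 66.6 CPM in untreated and 235, 288 and 346 CPM in TWEAK-treated cells. The groups were far apart (log2 fold change 2.35 ± 0.18, adjusted p = 2.92e-05, edgeR). *RELB*, the partner of p52, had a promoter site 81 bp upstream of a start site (chr19:45001078-45001682, 26.3-fold and 50.5-fold), and its RNA was at 18.6, 22.4 and 24.9 CPM without and 49.3, 56.7 and 62.9 CPM with TWEAK. It rose by 1.36 ± 0.15 (log2, adjusted p = 0.000437), with no overlap. *NFKBIA*, the gene for the inhibitor IκBα, had a weaker site in intron 1, 9 bp upstream of a start site inside the gene (chr14:35403629-35404196, 8.04-fold and 16.3-fold). A peak 44 bp upstream of its outermost start site (chr14:35404603-35404982, 7.82-fold) was in TWEAK replicate 2 alone. Its RNA rose from 23.8, 26 and 25.8 to 56.5, 59.8 and 73.4 CPM (log2 fold change 1.33 ± 0.15, adjusted p = 0.00051). *NFKBIB*, which encodes IκBβ, had a far stronger site 7 bp from its start (chr19:38899677-38900240, 35.5-fold and 68.2-fold) and a smaller rise, from 23.4, 21.8 and 23.6 to 34.9, 34.8 and 31.9 CPM (log2 fold change 0.56 ± 0.11, adjusted p = 0.0155). *TNIP1*, whose product works with the inhibitor A20, had 4 gained sites and rose from 161, 158 and 201 to 232, 259 and 295 CPM (0.60 ± 0.12, adjusted p = 0.0213). Site strength and RNA change were thus in different orders at *NFKBIA* and *NFKBIB*.

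Several of these genes had strong sites and no called change. *REL*, which encodes c-Rel, had a site 104 bp upstream (chr2:60880866-60881908, 32.5-fold and 72.9-fold), and its RNA lay at 1.95, 3.29 and 1.56 CPM without and 2.65, 2.76 and 3.58 CPM with TWEAK (log2 fold change 0.40 ± 0.32, adjusted p = 0.665). *RELA*, which encodes p65, had a site at 6900 bp (4.81-fold and 17.5-fold) and a log2 fold change of 0.41 ± 0.21 (adjusted p = 0.424). *BCL3* had 4 gained sites, of which that at its start had 24.8-fold and 39.7-fold, and its RNA overlapped between the groups, at 16.02, 16.01 and 34.5 against 11.1, 27.3 and 29.01 CPM (log2 fold change 0.02 ± 0.43, adjusted p = 0.993). *TNFAIP3*, which encodes the inhibitor A20, had a weaker promoter site (5.32-fold and 11.3-fold), and *CYLD*, a deubiquitinase gene, had 9.74-fold and 29.9-fold, with log2 fold changes of 0.53 ± 0.22 (adjusted p = 0.284) and 0.25 ± 0.15 (adjusted p = 0.501). The reverse also occurred. *NFKBIE*, which encodes IκBε, rose by 2.22 ± 0.17 (log2, adjusted p = 2.92e-05) with no gained site, and had peaks in TWEAK replicate 2 alone at 101 and 2070 bp, with 4.87-fold and 6.79-fold.

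In the group of TWEAK receptor and non-canonical signalling genes, 4 of 13 (30.8%) had a gained site, 6 rose and 0 fell. *TRAF1*, an adaptor of TNF receptors, had a site 470 bp from a start site with 8.21-fold and 14.9-fold and another at 695 bp with 27.4-fold and 60.9-fold, and rose from 10.2, 11.03 and 13.6 to 64.2, 83.1 and 144 CPM (log2 fold change 3.06 ± 0.31, adjusted p = 0.000249). *TRAF2*, which is part of the complex that keeps NIK low, had an intronic site (8.22-fold and 29.3-fold) and rose from 16.5, 16.7 and 16.4 to 30.1, 30.9 and 32.4 CPM (log2 fold change 0.91 ± 0.09, adjusted p = 0.000249). In neither did the groups overlap. *BIRC3*, which encodes cIAP2 of the same complex, had a rise, from 4.52, 3.53 and 1.97 to 166, 153 and 202 CPM (log2 fold change 5.71 ± 0.42, adjusted p = 2.92e-05), and no gained site, although TWEAK replicate 2 had a peak of 5.40-fold with 2 κB matches 182 bp from its start. *TRAF3* (0.95 ± 0.15, adjusted p = 0.00466) also rose with a peak in TWEAK replicate 2 alone, at its start site (9.89-fold). The gene for TWEAK, *TNFSF12*, had a gained site 5279 bp from its start, inside the neighbouring gene *TNFSF13* (14.8-fold and 31.5-fold), and its log2 fold change was -0.52 ± 0.41 (adjusted p = 0.659).

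Among chemokines and cytokines, 17 of 26 genes could be tested, 5 of them (29.4%) had a gained site, 9 rose and 0 fell, and the median log2 fold change was 1.12. *CXCL2* and *CXCL3*, which attract neutrophils, had promoter sites 50 and 57 bp from their starts (20.4-fold and 40.1-fold at *CXCL2*, 26.3-fold and 50.7-fold at *CXCL3*). *CXCL2* rose from 7.30, 7.16 and 9.56 to 25.4, 32.3 and 41.2 CPM (log2 fold change 2.04 ± 0.25, adjusted p = 0.000733) and *CXCL3* from 1.60, 2.03 and 2.66 to 8.79, 10.2 and 17.6 CPM (2.54 ± 0.33, adjusted p = 0.00105). The groups did not overlap at either gene, although reads of these related genes may be divided between them. *IL32*, which encodes a proinflammatory cytokine, had a promoter site (8.46-fold and 18.9-fold) and rose from 0.174, 0.0922 and 0.219 to 1.94, 2.14 and 3.22 CPM (3.89 ± 0.35, adjusted p = 0.000126). *LIF*, an IL-6 family cytokine, had a site 4356 bp upstream with 3 overlapping κB matches (30.3-fold and 68.0-fold). Its RNA rose from 47.5, 54.1 and 65.2 to 94.1, 115 and 148 CPM (1.098 ± 0.199, adjusted p = 0.0104). *CSF1*, the macrophage growth factor, had a promoter site (19.8-fold and 36.2-fold) without a called change, at 137, 149 and 235 against 112, 197 and 216 CPM (0.01 ± 0.28, adjusted p = 0.994). *IL1B* (2.38 ± 0.24, adjusted p = 0.000249) and *CXCL8* (1.68 ± 0.23, adjusted p = 0.00174), both proinflammatory, rose with the nearest gained site at 21476 bp and, for *CXCL8*, 14406 bp.

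Of the 16 adhesion, matrix and protease genes, 13 were tested, 6 of them (46.2%) had a gained site, 5 rose and 0 fell. *MMP9*, which encodes a gelatinase, had a promoter site 510 bp upstream (7.23-fold and 20.6-fold) and 0 counts in each untreated library, against 18, 51 and 118 counts with TWEAK, at least 54.6-fold higher against a floor of 3 counts over the group (adjusted p = 0.00328). *PLAUR*, the urokinase receptor gene, had a weak site (5.16-fold and 6.12-fold) and rose from 169, 167 and 198 to 256, 283 and 326 CPM (log2 fold change 0.69 ± 0.11, adjusted p = 0.00474). *ICAM1*, a textbook NF-κB target, had a site 5633 bp upstream (7.19-fold and 14.9-fold) and a log2 fold change of 0.54 ± 0.22 (adjusted p = 0.276). *TNC*, *MMP2* and *MMP14* had gained sites and no called change, although *MMP14* was called as lowered without a filter on low counts (log2 fold change -0.52, adjusted p = 0.021). Among 13 antigen presentation genes, 3 (23.1%) had a gained site, 2 rose and 0 fell. *B2M*, the light chain of MHC class I, had a strong site 26 bp upstream (33.7-fold and 81.3-fold) and a small rise, from 907, 880 and 850 to 1135, 1186 and 1094 CPM (0.37 ± 0.09, adjusted p = 0.0432).

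Of the 15 tested genes for ETS and AP-1 factors, 6 (40%) had a gained site, 3 rose and 0 fell. *ETS1* rose from 42.0, 41.3 and 45.1 to 71.9, 73.1 and 87.6 CPM (log2 fold change 0.86 ± 0.15, adjusted p = 0.0076), with its intronic site at 15.96-fold and 38.7-fold and no κB match within the 200 bp searched. *JUNB* had a site 2300 bp downstream of a start site, beyond the gene and in an annotated intron (chr19:12793376-12794195, 19.2-fold and 40.8-fold). Its RNA rose (0.66 ± 0.16, adjusted p = 0.0484). *ERG* had an intronic site (35.3-fold and 68.0-fold) with RNA at 0.174 to 0.645 CPM without and 0.573 to 0.789 CPM with TWEAK (0.67 ± 0.39, adjusted p = 0.499). Of 12 survival and stress genes, 3 (25%) had a gained site and 1 rose, *CFLAR* (0.66 ± 0.12, adjusted p = 0.0115), without a gained site within 10 kb, while *BCL2L1*, *MCL1* and *GADD45B* had gained sites and no called change with edgeR.

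Over all lists together, 99 of 112 genes were tested, 37 of these (37.4%) had a gained site within 10 kb, against 9.37% of all genes tested, 34 rose and 0 fell, against 1.55% and 1.53% of all genes. Of the 34, 16 had a gained site and 18 had none. Of the 18, 12 had a site in TWEAK replicate 2 alone within 10 kb and 5 had no p52 site there. Of the 37 with a gained site, 21 did not pass the test. The lists were chosen with earlier results of these data known, so their counts are descriptions.

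**Figure D5:**
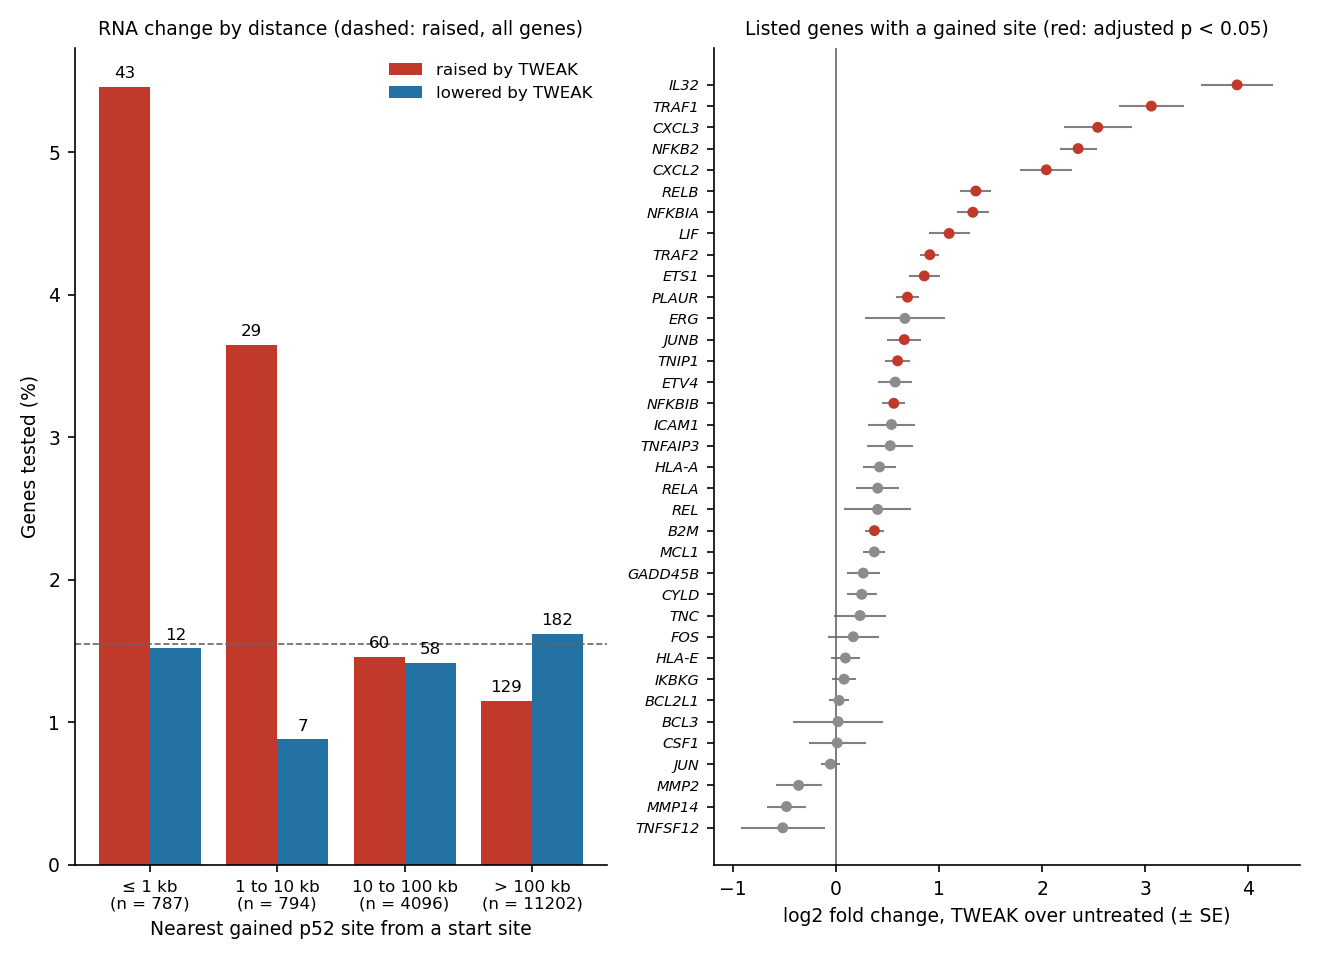
On the left, bars give the share of tested genes called raised or lowered by TWEAK (y axis, percent, with the number of genes above each bar) by distance of the nearest gained site (x axis), and the dashed line is the 1.55% raised among all genes: 5.46% are raised within 1 kb. On the right, points give the log2 fold change (x axis) and bars its SE for listed genes with a gained site, red where called, and MMP9 is left out because its untreated counts are 0.

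Outside the lists, the largest rises near gained sites included genes with next to no reads in untreated cells. *ITGAM*, an integrin gene of myeloid cells, had counts of 1, 1 and 0 without and 22, 40 and 54 with TWEAK, a ratio of 50.8 (counting interval 13.7 to 424), and a site of 14.0-fold and 26.1-fold in an intron. *HCAR3*, a receptor gene, had counts of 0, 0 and 1 against 16, 11 and 13, a ratio of 35 (5.93 to 1420). Better measured were *PI3*, which encodes the protease inhibitor elafin (promoter site 10.7-fold and 19.2-fold, 0.764, 0.738 and 0.781 against 4.95, 4.08 and 5.14 CPM, log2 fold change 2.63 ± 0.20, adjusted p = 2.92e-05), and *TNFRSF9*, which encodes the receptor 4-1BB. The latter had a promoter site of 7.43-fold and 12.4-fold and rose from 1.35, 1.60 and 1.41 to 5.81, 6.25 and 10.2 CPM (2.35 ± 0.27, adjusted p = 0.000437). *SLCO2B1*, an organic anion transporter gene, rose by 2.54 ± 0.26 (adjusted p = 0.000249) at a promoter site of 9.67-fold and 26.8-fold that held no κB match. For *SLC8A1-AS1* and the other antisense genes the strand of the counting is not given, so their reads cannot be told from those of the opposite gene. *SLC8A1-AS1* had a ratio of 35.9 (6.09 to 1450). *LINC00944* (2.37 ± 0.22, adjusted p = 0.000144) and *NEURL3* (2.38 ± 0.55, adjusted p = 0.0356) also rose, each with a site within 125 bp of its start.

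Fewer genes fell than rose near gained sites. *DPP4*, a cell-surface peptidase gene, had a promoter site 262 bp upstream (10.2-fold and 20.3-fold, 2 overlapping κB matches). Its RNA fell from 32.1, 32.6 and 27.03 to 15.2, 16.9 and 16.4 CPM (log2 fold change -0.92 ± 0.11, adjusted p = 0.000719). *CDH18*, a cadherin gene, fell from 7.78, 6.79 and 5.88 to 3.30, 3.01 and 1.75 CPM (-1.35 ± 0.26, adjusted p = 0.0147) at a weak promoter site of 5.55-fold and 6.26-fold. *CA11*, which encodes a carbonic anhydrase-related protein, had a promoter site of 8.04-fold and 16.9-fold and fell from 9.94, 9.22 and 9.06 to 4.05, 4.55 and 3.30 CPM (-1.24 ± 0.23, adjusted p = 0.0127). The groups did not overlap in any of these 3. *BNC2* (-0.72 ± 0.11, adjusted p = 0.00474), a zinc finger gene, *CYRIA* (-0.75 ± 0.12, adjusted p = 0.0051), *KCNJ15*, *HHAT*, *GASK1B* and *PIK3CD-AS2* fell as well, the last 4 with adjusted p between 0.0175 and 0.0347. Lowered genes thus also carried sites with κB matches.

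The calls were followed for 97 genes: listed genes with a gained site or a call, genes of largest change near gained sites, genes nearest to the strongest sites or to at least 5 sites, and the genes called in the KD. Of the 61 called as changed with TWEAK, 37 kept the call in every alternative and 24 lost it in at least 1 of them. *B2M* lost it in 9 of 11 (adjusted p 0.00173 to 0.338), *JUNB* in 7 (0.00737 to 0.229), *NEURL3* in 7 (0.000266 to 0.15), *GASK1B* in 6 (0.0109 to 0.186), *NFKBIB* in 5 (0.00013 to 0.0897) and *TNIP1* in 5 (0.000658 to 0.135). *LIF*, *CFLAR*, *CA11* and *HCAR3* lost it only without untreated replicates 1 or 2 or TWEAK replicate 3, with adjusted p up to 0.0606, 0.0604, 0.084 and 0.0864. *CDH18*, *HLA-B*, *IL1A* and *MYC* (0.00139 to 0.135) lost it also without TWEAK replicate 2, and *RANGAP1* lost it without untreated replicates 1 or 2 (up to 0.057). Of the genes without a called change, 5 had one in some alternative: *CEMIP*, lower, in 3 (adjusted p from 0.0039 to 0.277 over all alternatives), *ETV4*, higher, in 3 (0.0294 to 0.353), and *MCL1* (higher, by DESeq2, adjusted p = 0.0318), *MMP14* and *TUBA3C* (higher, with a replicate block, adjusted p = 0.0478) in 1 each.

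The KD of *NFKB2* in TWEAK-treated cells addressed whether genes with gained sites had less RNA with less *NFKB2*. The targeted gene had 1426, 1772 and 2131 counts in untreated and 6563, 11590 and 12468 in TWEAK-treated control cells. In KD cells it had 2613, 3404 and 3451. Its RNA was thus lower in each KD library than in TWEAK-treated control cells, but above the untreated level. RNA counts do not measure the p52 protein. The KD used CRISPR guides, and the paper checked by western blotting that expression was lower. Across 16879 genes, 5 (0.0296%) passed an adjusted p under 0.05, and 660 had an unadjusted p under 0.05. DESeq2 called 36. Of the 5, *NFKB2* (log2 fold change -1.67 ± 0.18, adjusted p = 0.00339) and *TRAF1* (-2.08 ± 0.30, adjusted p = 0.0392) had a gained site within 10 kb. Over all genes tested, 9.37% had such a site, and *NFKB2* was itself the target of the KD. *TRAF1* had 64.2, 83.1 and 144 CPM in control and 19.8, 19.1 and 29.9 CPM in KD cells, both with TWEAK. *NR5A2* (-3.07 ± 0.37, adjusted p = 0.00889) and *G0S2* (-0.77 ± 0.11, adjusted p = 0.0392) also fell, and *MEGF6* rose (2.72 ± 0.28, adjusted p = 0.00339), without a gained site within 10 kb. All 5 had risen with TWEAK, but both comparisons share the TWEAK-treated control libraries. Side by side, *RELB* had log2 fold changes of 1.36 with TWEAK and -0.69 with the KD (adjusted p = 0.319), *CXCL2* 2.04 and -1.06 (adjusted p = 0.409), *BIRC3* 5.71 and -1.82 (adjusted p = 0.194) and *IL32* 3.89 and 1.28 (adjusted p = 0.194). Of these, *BIRC3* had no gained site. Other raised genes with gained sites also differed in direction with the KD, without a called change. *MMP9* had -2.22, *CXCL3* -1.03, *TNFRSF9* -0.79, *LINC00944* -0.02, *PI3* 0.04, *SLCO2B1* 0.38 and *ITGAM* 0.53. Leaving out a library left 2 to 4 calls: 2 without KD replicates 1 or 2, 3 without TWEAK replicates 2 or 3, and 4 otherwise.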

How the data were processed

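The p52, ETS1 and RNA Pol II peak lists and a table of RNA-seq counts were used, with groups and replicates taken from the sample labels. The submitters' processing notes and the methods name Trimmomatic, Bowtie2, MACS2 (input subtracted) and bedtools (blacklisted regions removed) for ChIP-seq, and Trimmomatic, STAR and featureCounts for RNA-seq, on hg38. Versions, the strand setting and the input used for each library are not given in the sources used here. No input library of untreated cells is listed. The authors called and deposited peaks per library, not pooled, with a fold enrichment ratio and a −log10 q-value at each summit. The deposited counts are whole reads per gene, without normalisation, and have 0 rows that name no gene. Duplicated gene identifiers were summed (62696 rows, 62649 identifiers, of which 62625 are in GENCODE release 44).

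Peaks sharing at least 1 bp were merged into sites, and a gained site had a peak in both TWEAK-treated libraries and in no untreated library. Places came from GENCODE release 44 and sequences from the hg38 reference, and the 200 bp around the stronger summit were searched for motifs on both strands. Genes kept by filterByExpr (16879) were tested with edgeR 4.0.16 in R 4.3.3 (TMM, quasi-likelihood F-test, one model over all 4 RNA-seq groups, Benjamini-Hochberg adjusted p under 0.05), with fold changes on the log2 scale, and CPM are counts scaled by the normalised library size. On simulated counts for 16579 genes, 71% of 200 changed genes were recovered in the TWEAK comparison and 6.58% of calls were false. No pair of replicates agreed within sampling noise. Untreated RNA-seq replicates 1 and 2 were the closest pair. Their ratio of chi-square to degrees of freedom, a measure of disagreement, was 6.85, against 14.87 to 88.36 for the other pairs. Shares of sites carry exact (Clopper-Pearson) 95% intervals. Python 3.11.15, NumPy 2.4.6, pandas 2.3.3, SciPy 1.17.1, matplotlib 3.10.9, samtools 1.23.1 and DESeq2 1.42.0 (the tool named in the methods, as an alternative) were also used.

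The sites and lists were chosen with earlier results of these data known. Named were the 15 strongest gained sites by the lower TWEAK value, the 10 strongest in all 4 libraries and up to 5 lost sites by the lower untreated value, the 15 raised and 10 lowered genes of largest change with a gained site within 10 kb, the 5 genes nearest to most gained sites, and members of the gene lists. *MYC* and *NRG1*, among genes tied at 5 sites, and the site near *PLA2G6* with a peak in 1 untreated library were named after their values were seen. Of the genes this rule names, 1 is not reported here. Alternatives were other peak thresholds, overlaps, promoter windows, motif forms, distances, tools, filters, a replicate block, and leaving out each library, and some were added after seeing the data.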

Additional observations from a re-analysis of the deposited data

How the results depend on the processing

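The difference of 7087 peaks kept its direction under every alternative run, from 2996 to 11178 with a library left out. The 2807 gained sites became 338 with the 452 strongest peaks of each list and 11949 with a peak in either TWEAK library sufficing, and 2815 to 11559 with a library left out. Other thresholds and overlaps gave 2497 to 2838. The promoter share of 21.45% was 29.89% with a window of 2000 bp upstream to 500 bp downstream, 17.06% for coding genes only and 18.76% to 21.39% with a library left out. The κB share of 74.99% was 72.32% in 100 bp, 77.16% in the whole site, 77.24% with any base at position 6, 77.88% with also a purine at position 3, 76.57% for peaks with −log10 q of at least 5 and 64.5% to 74.78% with a library left out. The 103 sites in all 4 libraries became 60 at that threshold and 10 with equal numbers of peaks, the 72 lost sites 199 with equal numbers, and the κB share in all 4 libraries (2.913%) 1.667% at that threshold, 10.0% with equal numbers and 1.19% on chromosomes 1 to 22, X and Y. The 261 raised genes became 409 by DESeq2 and 110 to 236 with a library left out, and the 259 lowered genes 468 by DESeq2, 509 without a filter on low counts and 61 to 169 with a library left out. Raised genes within 10 kb of a gained site (72) numbered 43 within 1 kb, 132 within 100 kb, and 30 to 144 with a library left out. The 144 were 2.86% of 5027 genes, against 4.55% in the main setting. The share of raised genes near gained sites stayed above that of all genes tested in every RNA-seq alternative run. The *NFKB2* KD calls (5) became 36 by DESeq2, 87 without a filter, 2 with both TWEAK-treated groups alone, and 2 to 4 with a library left out. Deviations of same-numbered RNA-seq replicates correlated at 0.396, -0.178 and 0.492, so the numbers were not taken to pair the samples. With a replicate block there were 341 raised and 316 lowered genes, 93 raised within 10 kb and 4 KD calls. Of the 97 genes followed, 11 reversed, all without a called change: *BCL2L1* (-0.009 without a filter, -0.001 to 0.058 with a library left out, the lowest without untreated replicate 1), *BCL3* (-0.016 without a filter, -0.17 and -0.169 without untreated replicates 1 and 2, -0.14 and -0.211 without TWEAK replicates 2 and 3, up to 0.496 without untreated replicate 3), *CSF1* (-0.026 without a filter, -0.136, -0.088, -0.078 and -0.174 to 0.296 with a library left out), *SRSF6* (-0.007 without a filter, -0.034 to 0.102 with a library left out) and, with a library left out, *FOS* (-0.084 to 0.321), *JUN* (-0.114 to 0.01), *CALHM5* (-0.027 to 0.12), *CCNG1* (-0.26 to 0.093), *DACH1* (-0.241 to 0.102), *DLX2* (-0.183 to 0.971) and *PDE4B* (-0.001 to 0.273). The causes of these shifts were not tested. The alternatives for the number of peaks, the sites in all 4 libraries, the lost sites, the KD and single genes were added after seeing the data. Unknown ChIP-seq depth limits the comparison of list lengths, and low counts limit genes such as *ITGAM* and *HCAR3*.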
